A study of Mus musculus with 9 samples.

Results

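The Zfp genes described here were the protein and RNA entries of the deposited expression table whose gene name is Zfp followed only by a number, leaving out Zfp36. Of 366 entries with such a name, 365 remained without Zfp36. Of these, 281 had at least 1 FPKM (fragments scaled by transcript length and library size) in 3 or more of the 9 libraries and are called the Zfp genes below. They were therefore chosen on measured levels, and 11974 of the 29756 entries of the table passed the same filter. Each gene was listed once except Zfp91, which had 2 entries, so the 281 entries carried 280 symbols.

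Most of these genes encode proteins with C2H2 zinc fingers, short loops folded around a zinc ion that read DNA bases, and the fingers of 1 protein in a row set the sequence that it binds. Many also carry a KRAB box near the start of the protein, which recruits the scaffold protein Trim28 and, with it, the histone methyltransferase Setdb1 and the NuRD deacetylase complex to silence the bound site. KRAB zinc finger genes lie in clusters that grew by duplication, many silence transposable elements, and their mRNAs are known for low abundance and short life. The name Zfp also covers proteins with other tasks, among them RNA binding, ribosome assembly and attaching ubiquitin. Half-lives were not measured here.

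The libraries were SMARTer mRNA sequencing libraries from HT22 cells, an immortalised mouse hippocampal neuronal line, on an Illumina NovaSeq instrument. The series title names 2 agents, hemin, which is oxidised heme of the kind freed from haemoglobin after bleeding, and PPP8, a bioactive micelle. The labels name an experimental, an intervention and a control group of 3 libraries each, and do not say which group received which agent or dose, or for how long, so only the group names are used. All 3 groups are the same cell line. The labels do not state that libraries of a group came from separate cultures, so the spread behind each p-value is that between these libraries and may be technical.

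Depth is unknown because the table gives FPKM without counts. The summed FPKM ran from 316912 to 339943 over the 9 libraries. Of 12 neuronal markers, Tubb3 and Dlg4 alone reached 1 FPKM in 3 or more libraries, and the other 10 were at low values, the highest being Snap25 with up to 1.05 FPKM in 1 library. None of 5 astrocyte, 3 endothelial and 4 oligodendrocyte markers reached that level, and the microglial list reached it through Tmem119 alone, 1 of 6. The summed level of the microglial list was 10.6 to 12.1 FPKM in control, 1.08 to 1.97 in experimental and 1.66 to 2.95 in intervention libraries. The progenitor list reached 1 FPKM through Vim alone, 1 of 3 genes, with a summed level of 615 to 662 FPKM in control, 301 to 325 in experimental and 286 to 316 in intervention libraries. The 2 nuclear RNAs Neat1 and Malat1 summed to 115 to 202 FPKM in control, 82.1 to 106 in experimental and 75.3 to 91.8 in intervention libraries. The part of these shifts in the results below was not tested.

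The Zfp genes were weakly expressed. Their median mean level was 3.62 FPKM, against 7.24 FPKM over all entries tested, and 33 of the 281 averaged 10 FPKM or more. Group means in control ran from 0.467 to 52.1 FPKM. The highest was Zfp207, which encodes a kinetochore protein of the mitotic spindle, followed in the same scale by Zfp740, Zfp106 and Zfp91 at 23 to 34 FPKM in each control library. The median gene stood at 4.08 FPKM in control, 3.64 in intervention and 3.17 in experimental libraries. The genes summed to 1553 to 1589 FPKM in control, 1552 to 1572 in intervention and 1457 to 1488 in experimental libraries. The experimental libraries lay below all others, and intervention and control overlapped. As a share of all summed FPKM the genes made up 0.475% to 0.501% in control, 0.459% to 0.463% in intervention and 0.430% to 0.447% in experimental libraries.

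More Zfp genes fell than rose between control and experimental libraries, and both shares were near those of all entries tested. Of the 281 entries, 143 (50.9%) were lower and 53 (18.9%) were higher in the experimental libraries by limma at an adjusted p under 0.05, and 85 did not pass. Of all 11974 entries tested, 50.5% were lower and 23.5% higher. Of the 10819 other entries within the same range of mean control FPKM, 51.4% were lower and 22.1% higher. The median difference, experimental minus control on the log2(FPKM + 1) scale, was -0.21 for the Zfp genes, -0.21 over all entries tested and -0.22 over the others in the range. The quartiles of the Zfp genes were -0.50 and 0.08, and those of the others in the range -0.60 and 0.16. In bulk RNA, fewer cells expressing a gene and less of its RNA per cell cannot be told apart.

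The split between lower and higher genes moved with the scaling of the libraries. Scaling by the median ratio to a common reference moved the median of all entries from -0.21 to 0.003 and left 97 Zfp genes lower and 94 higher, beside 36.4% lower and 36.6% higher over all entries. Quantile normalization left 74 lower and 109 higher, beside 37.0% and 34.8% over all entries. Rescaling to TPM gave 155 lower and 46 higher. The sizes below are those of the deposited FPKM scale, so a gene near -0.21 stands at the median of the transcriptome.

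**Figure D1:**
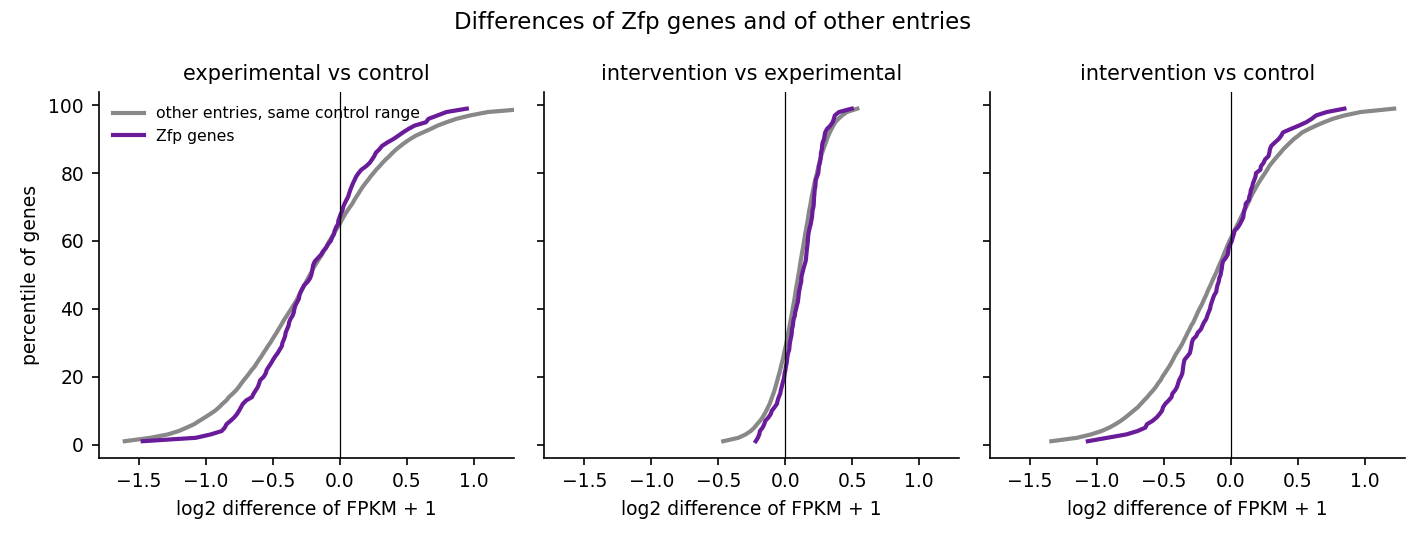
Cumulative distribution of log2(FPKM + 1) differences for the Zfp genes and for the other entries in the same range of mean control FPKM, one panel for each comparison; the x axis is the difference and the y axis the percent of entries at or below it. The curves lie close together, with medians of -0.21 and -0.22 for experimental minus control.

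The genes that fell by 1 or more on the log2 scale were Zfp469, Zfp414, Zfp395, Zfp362, Zfp101, Zfp827, Zfp523 and Zfp658, 8 in all. Zfp469 (chr8:122269569-122272650, plus strand, mm10) is the gene whose human counterpart is mutated in brittle cornea syndrome. It measured 0.5, 0.54 and 2.24 FPKM in the experimental libraries, 2.62, 2.68 and 2.84 in the intervention libraries, and 9.95, 6.95 and 10.72 in the control libraries. Each group was separate from the next, with the lowest values in the experimental group, although experimental library 3 stood apart from the other 2. The mean was 8.42-fold lower in experimental than in control libraries (log2 difference -2.36, SE 0.26, limma adjusted p = 1.81e-05), and the log2 difference was -2.73 without experimental library 3.

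Zfp414 (chr17:33629090-33631779, plus strand) measured 3.82, 4.61 and 4.0 FPKM in experimental, 6.44, 5.57 and 5.74 in intervention, and 15.85, 14.76 and 14.49 in control libraries. The 3 groups did not overlap, and the mean fell 3.63-fold (log2 difference -1.64, SE 0.07, limma adjusted p = 7.77e-08). Of its transcript's 50-base windows, 26.3% also occur in Gm20507, so some of its reads cannot be assigned to 1 of the 2 genes. Zfp395 (chr14:65358389-65398930, plus strand), whose human counterpart binds the promoter of the huntingtin gene, measured 1.32, 1.66 and 1.66 FPKM in experimental, 2.26, 1.99 and 2.38 in intervention, and 6.79, 5.88 and 5.98 in control libraries. Control stood above the other groups in every library, and the mean was 4.02-fold lower in the experimental group (log2 difference -1.50, SE 0.08, limma adjusted p = 2.3e-07). Zfp362 (chr4:128773088-128806045, minus strand) measured 4.46, 3.78 and 3.84 FPKM in experimental, 5.75, 5.4 and 6.02 in intervention, and 12.64, 12.22 and 13.69 in control libraries. Its groups were again separate and in the same order, with a 3.19-fold lower experimental mean (log2 difference -1.46, SE 0.07, limma adjusted p = 1.01e-07).

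Of the 8, Zfp101 and Zfp658 encode KRAB proteins. Zfp101 measured 3.2, 3.9 and 3.36 FPKM in experimental, 5.2, 4.54 and 4.61 in intervention, and 9.1, 9.08 and 8.48 in control libraries. The groups did not overlap, and its mean was 2.55-fold lower in the experimental group (log2 difference -1.14, SE 0.07). Zfp658 stood at 0.94, 0.7 and 0.83 FPKM in experimental libraries against 2.59, 2.5 and 2.9 in control. Zfp827, whose human counterpart brings the NuRD complex to telomeres, stood at 1.71, 2.14 and 1.91 FPKM in experimental against 5.6, 5.02 and 5.42 in control libraries. Both fell without overlap, by 1.01 and 1.12 on the log2 scale. Zfp523 fell by 1.04, from 2.66 to 3.47 FPKM in control to 0.78 to 1.08 FPKM in experimental libraries.

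The entries that rose by 1 or more on the log2 scale were Zfp566, Zfp418 and the second entry of Zfp91, and the first 2 encode KRAB proteins. Zfp418 and the second Zfp91 entry were under 1 FPKM in every control library and passed the filter through the other groups. Their direction against control was therefore partly set by the filter. Zfp566 (chr7:30077337-30090527, minus strand) measured 4.54, 4.56 and 5.4 FPKM in experimental, 4.02, 3.24 and 4.11 in intervention, and 1.2, 1.04 and 1.54 in control libraries. Control was lowest and overlapped neither group, with a 3.84-fold higher experimental mean (log2 difference 1.37, SE 0.11, limma adjusted p = 1.51e-06). The gene overlaps another on the same strand, and 15.6% of its windows occur elsewhere. Zfp418 (chr7:7171330-7183562, plus strand) had no shared windows, and was below 1 FPKM in control at 0.75, 0.77 and 0.72. It reached 2.96, 2.97 and 3.11 FPKM in experimental and 3.19, 2.85 and 3.31 in intervention libraries. Those groups overlapped each other and stood 4.04-fold and 4.17-fold above control (log2 differences 1.20 and 1.24, SE 0.07 each).

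The second entry of Zfp91 measured 1.4, 2.44 and 2.48 FPKM in experimental, 1.35, 1.68 and 1.92 in intervention, and 0.45, 0.38 and 0.57 in control libraries. It rose without overlap (log2 difference 1.06, limma adjusted p = 8.6e-05). The main entry of Zfp91, a ubiquitin ligase gene, measured 25.1, 24.06 and 24.19 FPKM in experimental against 24.09, 24.25 and 23.63 in control libraries and did not pass (log2 difference 0.03, limma adjusted p = 0.633). The table does not say how the 2 entries differ, so the rise belongs to the entry and not to the gene.

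Among genes that rose by less than 1, Zfp142 (chr1:74565127-74588246, minus strand) encodes the protein with the most fingers of the set, 36. It measured 14.03, 13.08 and 14.59 FPKM in experimental, 11.12, 12.27 and 12.31 in intervention, and 7.02, 6.28 and 7.33 in control libraries. Its 3 groups were separate, with control lowest, and the experimental mean was 2.02-fold higher (log2 difference 0.92, SE 0.07, limma adjusted p = 1.16e-06). A gene on the opposite strand overlaps it. Zfp180 measured 15.84, 17.15 and 17.85 FPKM in experimental and 17.2, 17.01 and 17.12 in intervention libraries, with 10, 9.42 and 10.42 in control. It rose by 0.71 and 0.73 against control in the 2 groups, which overlapped each other.

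**Figure D2:**
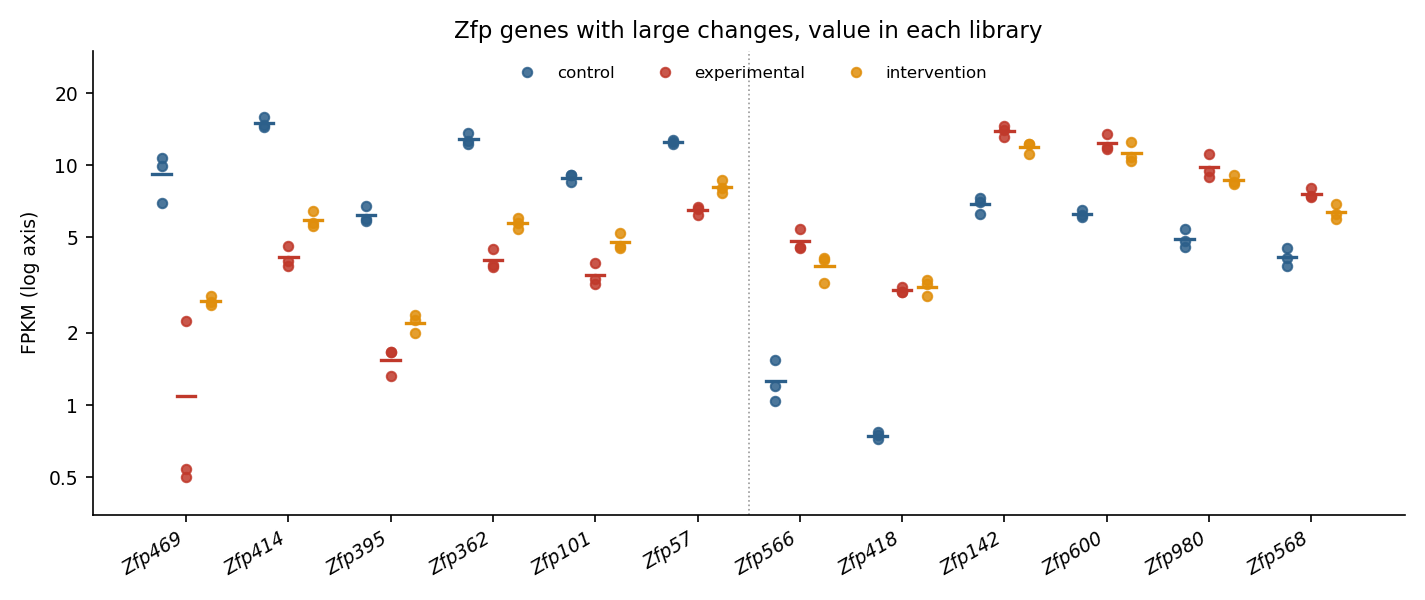
FPKM in each library, on a log axis, for 12 Zfp genes; points are libraries of the experimental, intervention and control groups and bars are group means. The 6 genes left of the dotted line were highest in control (Zfp469, Zfp414, Zfp395, Zfp362, Zfp101 and Zfp57). The 6 to its right (Zfp566, Zfp418, Zfp142, Zfp600, Zfp980 and Zfp568) were lowest there.

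Some members have known targets in imprinted loci or transposable elements. Of 6 such genes tested, 3 were lower and 1 was higher in experimental than in control libraries, beside 50.5% and 23.5% of all entries. Median-ratio scaling gave 2 higher and 1 lower. Zfp57, which keeps imprinted regions methylated, measured 6.22, 6.6 and 6.72 FPKM in experimental, 8.64, 8.03 and 7.63 in intervention, and 12.51, 12.29 and 12.79 in control libraries. The groups did not overlap, and Zfp57 fell by 0.85 on the log2 scale (SE 0.06, limma adjusted p = 5.79e-07). Zfp445, which acts on imprinted regions beside Zfp57, measured 13.91, 14.81 and 14.15 FPKM in experimental, 17.42, 16.57 and 16.21 in intervention, and 14.4, 14.24 and 15.07 in control libraries. Experimental and control overlapped (log2 difference -0.03, limma adjusted p = 0.646), and the intervention libraries were above both. Zfp809, which silences retroviruses in embryonic cells, stood at 5.12, 4.66 and 4.42 FPKM in experimental against 5.95, 5.79 and 6.33 in control libraries and fell by 0.29 (limma adjusted p = 0.0113).

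Zfp568, which represses a placental promoter of the Igf2 gene, was the member of this list that rose. It measured 7.39, 7.46 and 8.01 FPKM in experimental, 5.97, 6.9 and 6.24 in intervention, and 4.11, 3.8 and 4.52 in control libraries. Its 3 groups did not overlap, and the experimental mean was 1.84-fold above control (log2 difference 0.75, SE 0.07, limma adjusted p = 6.07e-06).

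Of 13 Zfp genes with known work on RNA, ribosomes or ubiquitin, 6 were higher and 4 lower in experimental libraries, beside 23.5% and 50.5% of all entries. Median-ratio scaling gave 9 higher and 2 lower (median 0.31 in place of 0.07). The list holds Zfp385a, which the naming rule leaves out. Zfp598, the ubiquitin ligase that marks collided ribosomes, measured 26.6, 28.66 and 28.62 FPKM in experimental, 26.56, 26.72 and 29.83 in intervention, and 22.24, 20.37 and 21.49 in control libraries. Control was lowest in every library, and Zfp598 rose by 0.37 (SE 0.06, limma adjusted p = 0.000243). Zfp622, an assembly factor of the large ribosomal subunit, measured 9.64, 10.06 and 11.38 FPKM in experimental against 7.66, 7.44 and 6.66 in control libraries. It rose by 0.46 without overlap (SE 0.07, limma adjusted p = 0.00019). Zfp593, another factor of the large subunit, and Zfp830, a splicing factor, rose by 0.42 and 0.26.

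The most abundant gene of the set went the other way. Zfp207 measured 38.21, 40.66 and 40.53 FPKM in experimental, 48.2, 44.97 and 44.73 in intervention, and 50.48, 56.2 and 49.67 in control libraries. The groups were separate, and it fell by 0.38 (SE 0.06, limma adjusted p = 0.000182). Zfp638, which silences unintegrated retroviral DNA, fell by 0.24, and this difference was 0.003 after quantile normalization. Zfp106, an RNA-binding protein needed by motor neurons, measured 25.2, 26.35 and 26.03 FPKM in experimental against 26.97, 23.41 and 26.75 in control libraries, and the groups overlapped (limma adjusted p = 0.876). Zfp706 had a difference of 0.07 and did not pass (limma adjusted p = 0.255).

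Of 20 DNA-binding members with a studied role outside repeats, 10 were lower and 5 higher in experimental libraries, beside 50.5% and 23.5% of all entries. Median-ratio scaling gave 8 lower and 10 higher of these 20. Zfp143, an activator bound at many promoters, measured 6.02, 6.32 and 6.67 FPKM in experimental against 8.59, 7.95 and 8.34 in control libraries and fell by 0.34 (SE 0.05). Zfp217, an oncogenic cofactor of transcriptional repressors, measured 3.13, 3.77 and 3.25 FPKM against 5.85, 5.27 and 5.81 and fell by 0.60 (SE 0.07). Zfp335, which neural progenitors need for division, measured 8.65, 9.04 and 8.96 FPKM against 13.12, 11.24 and 12.65 and fell by 0.43 (SE 0.06). None of these 3 genes overlapped between the groups. Zfp410, an activator with few known targets besides the NuRD gene Chd4, measured 4.1, 3.68 and 3.88 FPKM in experimental against 3.21, 3.05 and 2.89 in control libraries and rose by 0.27 (SE 0.06, limma adjusted p = 0.0024). Chd4 itself stood at 46.26, 46.28 and 46.39 FPKM in experimental against 69.34, 60.21 and 70.5 in control libraries and fell by 0.51 (SE 0.06). Zfp462, a chromatin protein of embryonic stem cells, fell by 0.34, and Zfp148, which binds GC-rich promoters, rose by 0.19 (limma adjusted p = 0.0380). Zfp281, a pluripotency regulator, measured 9.95, 10.31 and 10.16 FPKM in experimental against 10.79, 10.57 and 10.39 in control libraries and did not pass (log2 difference -0.06, limma adjusted p = 0.309). Zfp423, a regulator of cerebellar and fat cell development, was at 0 to 0.02 FPKM in all 9 libraries.

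On the deposited scale the weakly expressed Zfp genes were mostly lower in experimental libraries and the strongly expressed ones mostly not. Of the 57 genes with a mean under 2 FPKM, 34 were lower and 1 was higher, with a median difference of -0.34. The direction in this class was partly set by the filter, which Zfp14, Zfp759 and Zfp775 passed through the control group alone. Of all 281 entries, 12 were under 1 FPKM in all 3 experimental libraries and 3 in all 3 control libraries. The same filter chose the other entries below. Of the 119 genes from 2 to 5 FPKM, 76 were lower and 14 higher (median -0.34), and of the 72 from 5 to 10 FPKM, 29 were lower and 21 higher (median -0.03, which became 0.19 with median-ratio scaling and 0.21 with quantile normalization). Of the 33 genes at 10 FPKM or more, 17 (51.5%) were higher and 4 (12.1%) lower, with a median difference of 0.24.

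Among other entries more were lower than higher in every level class on the deposited scale; at 10 FPKM or more median-ratio scaling gave 1934 higher and 1131 lower. At 10 FPKM or more, 1285 of the 3916 other entries in the control range (32.8%) were higher and 1755 (44.8%) lower, with a median of -0.09. Below 2 FPKM, 218 of 1831 were higher and 923 lower, with a median of -0.30. Of the others from 2 to 5 FPKM, 13.9% were higher and 58.5% lower (median -0.33). From 5 to 10 FPKM, 20.9% of the others were higher and 55.1% lower (median -0.26). The median of the Zfp genes at 10 FPKM or more remained above 0 under every scaling tried, from 0.15 with the GC and length trend removed to 0.48 with median-ratio scaling, whereas that of the others became 0.15 under the latter. The difference between the 2 sets was not tested. Across genes, Spearman's rho between mean level and difference was 0.39 over the 281 Zfp genes and 0.19 over the 10819 others, a description in which the genes share the same 9 libraries and the offset of 1 FPKM.

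The 4 lower genes at 10 FPKM or more were Zfp207, Zfp292, Zfp687 and Zfp335. Among the 17 higher ones, Zfp740 measured 36.99, 40.38 and 41.69 FPKM in experimental, 42.11, 42.58 and 40.86 in intervention, and 32.71, 30.17 and 33.39 in control libraries. Control was lowest throughout, with a difference of 0.30 (SE 0.06, limma adjusted p = 0.000868). Zfp146 measured 25.15, 23.51 and 24.69 FPKM in experimental, 21.29, 23.44 and 22.06 in intervention, and 14.65, 13.67 and 14.3 in control libraries and rose by 0.74 (SE 0.05). Zfp367 measured 29.38, 26.58 and 28.55 FPKM in experimental against 18.5, 18.15 and 18.41 in control libraries and rose by 0.59 (SE 0.06). Both were separate from control in every library.

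**Figure D3:**
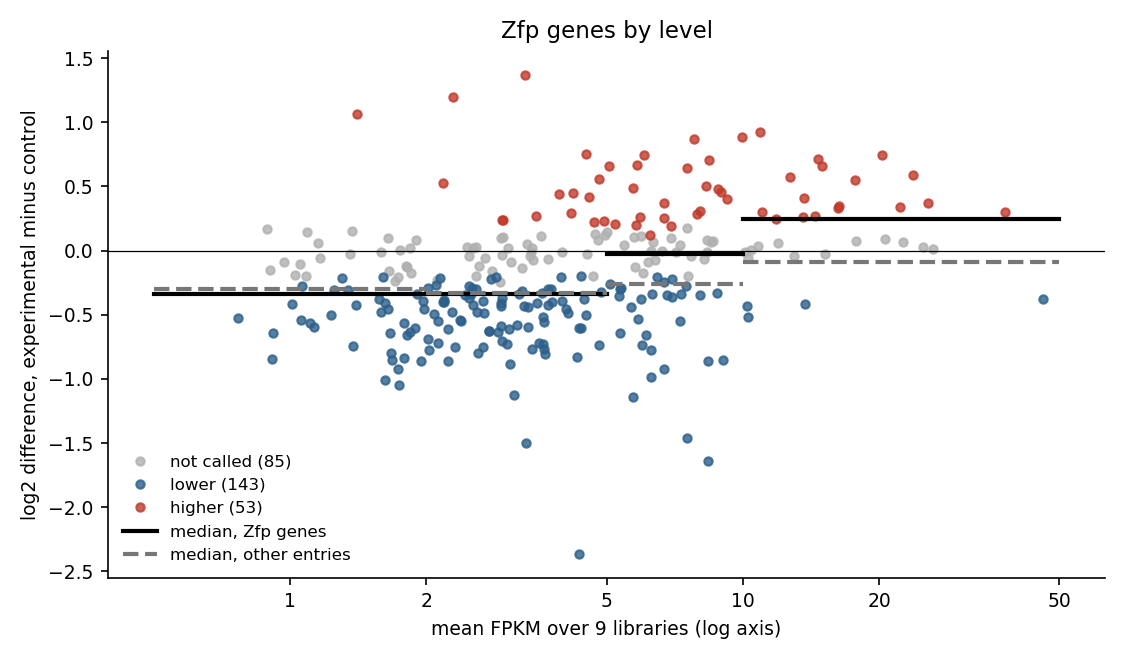
Difference of log2(FPKM + 1), experimental minus control, against mean FPKM on a log axis, each point 1 Zfp gene; solid lines are medians of the Zfp genes in 4 level classes and dashed lines those of other entries in the control range. The Zfp medians go from -0.34 below 2 FPKM to 0.24 at 10 FPKM or more, and those of the others from -0.30 to -0.09.

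KRAB and other Zfp genes differed in build and level. An open reading frame with a KRAB A box was found for 162 of the 279 annotated entries. Their transcripts had a median GC content of 40.6% and 12 fingers, against 51.4% and 7.5 fingers for the 117 without the box. The KRAB genes had a median control level of 3.24 FPKM and the others 5.80 FPKM. A finger pattern was found in 271 of the 278 protein-coding entries. The motif ATTTA, the core of the AU-rich elements that mark unstable mRNAs, occurred at least once in the 3′ UTR of 76.3% of the Zfp genes, 80.9% of the KRAB genes and 65.8% of all tested entries, lengths of UTRs not being matched. Spearman's rho between ATTTA count and the experimental minus control difference was 0.14 over the Zfp genes. It was 0.04 with KRAB, 0.23 without and 0.07 over the other entries in the control range. A link to mRNA stability was not tested.

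On the deposited scale both kinds held more lower than higher genes in the experimental libraries. Of the KRAB genes, 78 (48.1%) were lower and 25 higher, with a median difference of -0.20. Of the others, 65 were lower and 27 higher, with a median of -0.28, and over all entries 50.5% were lower and 23.5% higher. Median-ratio scaling gave 52 lower and 49 higher KRAB genes and 45 lower and 43 higher others. Quantile normalization gave 33 lower and 62 higher KRAB genes (median 0.08) and 41 lower and 45 higher others (median 0.002). The number of fingers showed no trend with the difference, with Spearman's rho of -0.001, and of the 59 genes with 15 or more fingers 32 were lower and 9 higher.

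On the deposited scale lower genes outnumbered higher ones in each class of GC content, and the median fell furthest from 0 in the GC-rich class. Of the 85 genes with a transcript GC content of 50% or more, 55 were lower and 12 higher (median -0.39). Of the 118 genes from 40% to 50%, 57 were lower and 24 higher (median -0.20, or 0.10 with quantile normalization), and of the 76 below 40%, 31 were lower and 16 higher (median -0.11). The median of the GC-rich class was below 0 under every scaling tried, from -0.11 with quantile normalization to -0.52 on the TPM scale. That of the class below 40% became 0.04 with median-ratio scaling, where 28 were higher and 18 lower, and 0.12 with quantile normalization. The other entries in the control range had medians of -0.31, -0.15 and -0.08 in the same classes. Of these others 57.5%, 46.5% and 40.2% were lower, beside 64.7%, 48.3% and 40.8% of the Zfp genes. The shares called higher were 18.7%, 25.8% and 23.7% of the others and 14.1%, 20.3% and 21.1% of the Zfp genes. Across genes, Spearman's rho with GC content was -0.22 over 279 Zfp genes and -0.16 over 10603 others, without a test of the difference.

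**Figure D4:**
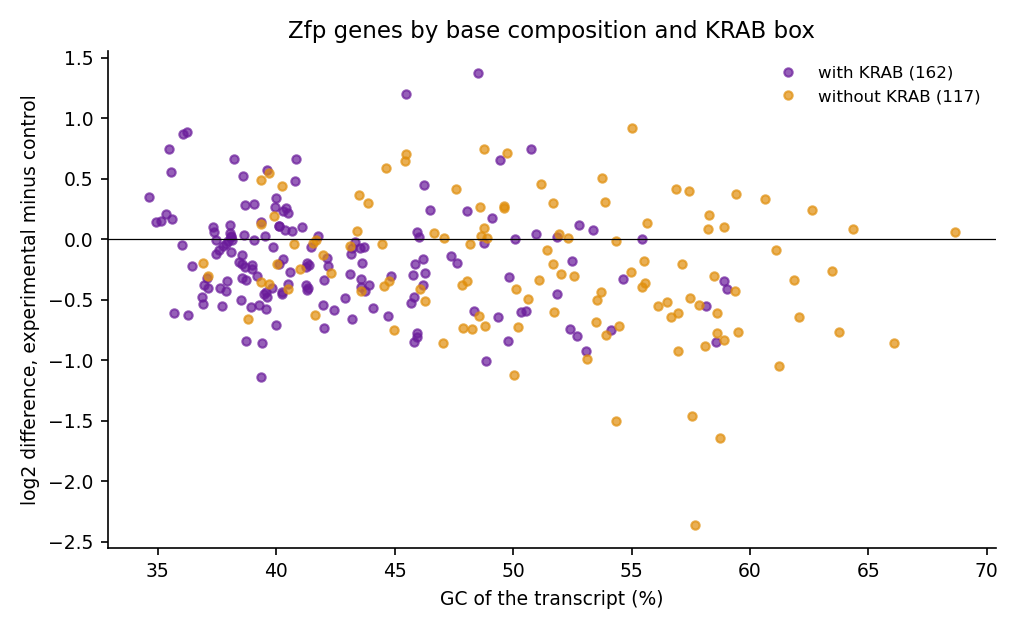
Difference of log2(FPKM + 1), experimental minus control, against transcript GC content in percent, each point 1 Zfp gene, coloured by whether a KRAB box was found. KRAB genes lie at lower GC (median 40.6% against 51.4%), and the median difference goes from -0.11 below 40% GC to -0.39 at 50% or more.

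Some of the Zfp genes lie in clusters. With gaps of up to 500 kb, 10 clusters of 6 or more members held 105 of the 281, among them 88 of the 162 genes with a KRAB box and 17 of the 117 without one. Chromosome 7 alone carried 69 members, chromosome 17 carried 38 and chromosome 4 carried 24. In 9 of the 10 clusters the median difference between experimental and control was below 0, as was the median of -0.21 over all entries. After quantile normalization 5 of these 9 medians lay above 0. With the GC and length trend removed, that of the chromosome 7 cluster from Zfp553 to Zfp646 was 0.05. The exception on the deposited scale was the cluster from Zfp990 to Zfp933 on chromosome 4 (chr4:145510759-147848366, mm10).

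That cluster holds 15 Zfp genes, all with a KRAB box. In the experimental libraries 5 were higher (Zfp600, Zfp980, Zfp978, Zfp981 and Zfp979) and 3 lower (Zfp992, Zfp933 and Zfp984), with a median difference of 0.15 that was above 0 under every scaling tried. Over all entries 23.5% were higher and 50.5% lower. Zfp600 (chr4:146156824-146198755, plus strand, 17 fingers) measured 13.56, 11.9 and 11.74 FPKM in experimental, 10.38, 12.54 and 10.83 in intervention, and 6.06, 6.19 and 6.48 in control libraries. Control was lowest and the other groups overlapped, with a 1.99-fold higher experimental mean (log2 difference 0.89, SE 0.08, limma adjusted p = 3.24e-06). Zfp980 measured 11.18, 8.93 and 9.49 FPKM in experimental, 8.32, 9.11 and 8.53 in intervention, and 4.56, 4.84 and 5.4 in control libraries, the same order, and rose by 0.87 (SE 0.08). Zfp978, Zfp981 and Zfp979 rose by 0.57, 0.56 and 0.35.

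These genes are near copies of each other, so their values are uncertain. In 12 of the 15, at least 20% of the transcript's 50-base windows occur in another gene, with 81.2% in Zfp600, 77.4% in Zfp978, 71.3% in Zfp980, 40.02% in Zfp981 and 26.7% in Zfp979. Reads from 1 copy can be counted for another, and how the authors assigned such reads is not given in the sources used here. Rex2, a neighbour outside the naming rule, holds 70.9% of the windows of Zfp600. It measured 20.2, 18.4 and 21.1 FPKM in experimental against 10.1, 10.9 and 10.5 in control libraries and rose by 0.86 (SE 0.07, limma adjusted p = 1.41e-06).

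Some of the promoter windows are also alike, to varying degrees, shown here for 2 genes that rose and 1 that fell. Each window runs from 250 bases before to 50 bases after the start in RefSeq on GRCm38.p6, written 5′ to 3′ on the gene's strand. Capitals mark a run of 21 bases that the windows of Zfp600, Zfp980, Zfp981 and Zfp979 share. The run begins at base 270 of the window in Zfp600, 264 in Zfp979 and Zfp980 and 242 in Zfp981. In Zfp600, Zfp979 and Zfp980 it thus lies after the annotated start, in transcribed sequence. The windows lie at chr4:146156577-146156876 on the plus strand for Zfp600, chr4:146514670-146514969 on the plus strand for Zfp981 and chr4:147809739-147810038 on the minus strand for Zfp984.
Zfp600: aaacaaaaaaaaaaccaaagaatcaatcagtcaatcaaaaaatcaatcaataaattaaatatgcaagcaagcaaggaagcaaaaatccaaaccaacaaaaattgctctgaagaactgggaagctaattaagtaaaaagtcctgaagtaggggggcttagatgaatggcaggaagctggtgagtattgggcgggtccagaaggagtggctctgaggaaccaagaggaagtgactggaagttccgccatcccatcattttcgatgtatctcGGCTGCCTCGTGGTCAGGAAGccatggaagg
Zfp981: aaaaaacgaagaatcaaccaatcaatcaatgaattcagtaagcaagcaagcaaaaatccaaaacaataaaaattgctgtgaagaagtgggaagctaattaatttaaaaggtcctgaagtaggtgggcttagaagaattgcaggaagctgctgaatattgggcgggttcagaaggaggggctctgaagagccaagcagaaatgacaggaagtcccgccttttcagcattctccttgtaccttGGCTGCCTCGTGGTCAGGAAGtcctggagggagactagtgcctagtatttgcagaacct
Zfp984: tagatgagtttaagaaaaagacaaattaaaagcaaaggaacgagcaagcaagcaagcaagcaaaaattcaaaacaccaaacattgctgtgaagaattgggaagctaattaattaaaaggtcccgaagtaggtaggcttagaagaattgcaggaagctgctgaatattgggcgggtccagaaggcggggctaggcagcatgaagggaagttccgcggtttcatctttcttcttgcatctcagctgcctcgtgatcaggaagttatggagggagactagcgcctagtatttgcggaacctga

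The run occurs in 7 of the 32851 promoter windows of the RefSeq table, which is 0.0213%, and in none on the other strand. The 7 windows belong to Zfp600, Zfp979, Zfp980, Zfp981, Zfp982, Zfp985 and Rex2. Only 11 cluster members have a RefSeq window under their name, and Zfp978, which rose, has none. Zfp982 and Zfp985 did not pass the test between experimental and control. Only exact matches to the run were searched. The window of Zfp984, which was lower, has no exact match but holds agctgcctcgtgatcaggaag, a close variant of the run. Because the run was chosen from genes that rose, its presence in them is a description. Against the window of Zfp600, identity over the alignment was 98.3% for Zfp979, 92.2% for Zfp980, 85.6% for Zfp981 and 79.5% for Zfp984. Some genes that did not pass had windows closer than that of the risen Zfp981, with 92.3% for Zfp982, 90.6% for Zfp534 and 90.5% each for Zfp985 and Zfp988. The lower Zfp933 stood at 59.2% and the window named Zfp993 at 56.7%. That window (chr4:146512599-146512898) lies within the GENCODE span of Zfp981 and outside that of Zfp993 (chr4:146610961-146658160). It may therefore not be the promoter of the Zfp993 whose position is used here, which did not pass. Further windows stood at 59.9% and 63.8% for Zfp982 and at 56.2% for Zfp600 itself. Zfp984 measured 6.95, 5.75 and 5.97 FPKM in experimental, 7.18, 7.69 and 7.05 in intervention, and 6.67, 8.38 and 7.26 in control libraries, with overlap between experimental and control (log2 difference -0.22, SE 0.09, limma adjusted p = 0.0381), and the difference was 0.021 after quantile normalization.

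The cluster from Zfp84 to Zfp146 on chromosome 7 (chr7:29768552-30169750) held 14 members that moved in both directions. Of these, 5 rose (Zfp84, Zfp790, Zfp568, Zfp566 and Zfp146) and 6 fell (Zfp30, Zfp420, Zfp27, Zfp383, Zfp74 and Zfp14), over a range of -0.74 to 1.37. Zfp14 passed the filter through the control group alone, so its direction was partly set by the filter. The shares over all entries were 23.5% higher and 50.5% lower. Zfp27 measured 0.92, 1.15 and 0.8 FPKM in experimental, 0.92, 0.87 and 0.91 in intervention, and 2.31, 2.43 and 2.07 in control libraries. Control was highest, and Zfp27 fell by 0.74 and 0.78 against it in the 2 groups. None of these 14 genes shares 20% of its windows with another gene, so copies do not limit the values as they do on chromosome 4.

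On chromosome 17, 13 of the 22 members from Zfp160 to Zfp213 were lower and 5 higher (median -0.34), beside 50.5% lower and 23.5% higher over all entries. Median-ratio scaling gave 8 lower and 7 higher of the 22, and quantile normalization 4 lower and 6 higher (median -0.024). Of the 9 members from Zfp871 to Zfp414, 6 were lower and 2 higher (median -0.45), or 5 and 3 with median-ratio scaling. The 6 members from Zfp398 to Zfp746 on chromosome 6 included 4 lower and none higher, or 2 lower and 1 higher with median-ratio scaling. Members of a cluster share their neighbourhood and part of their sequence and are not independent of each other.

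**Figure D5:**
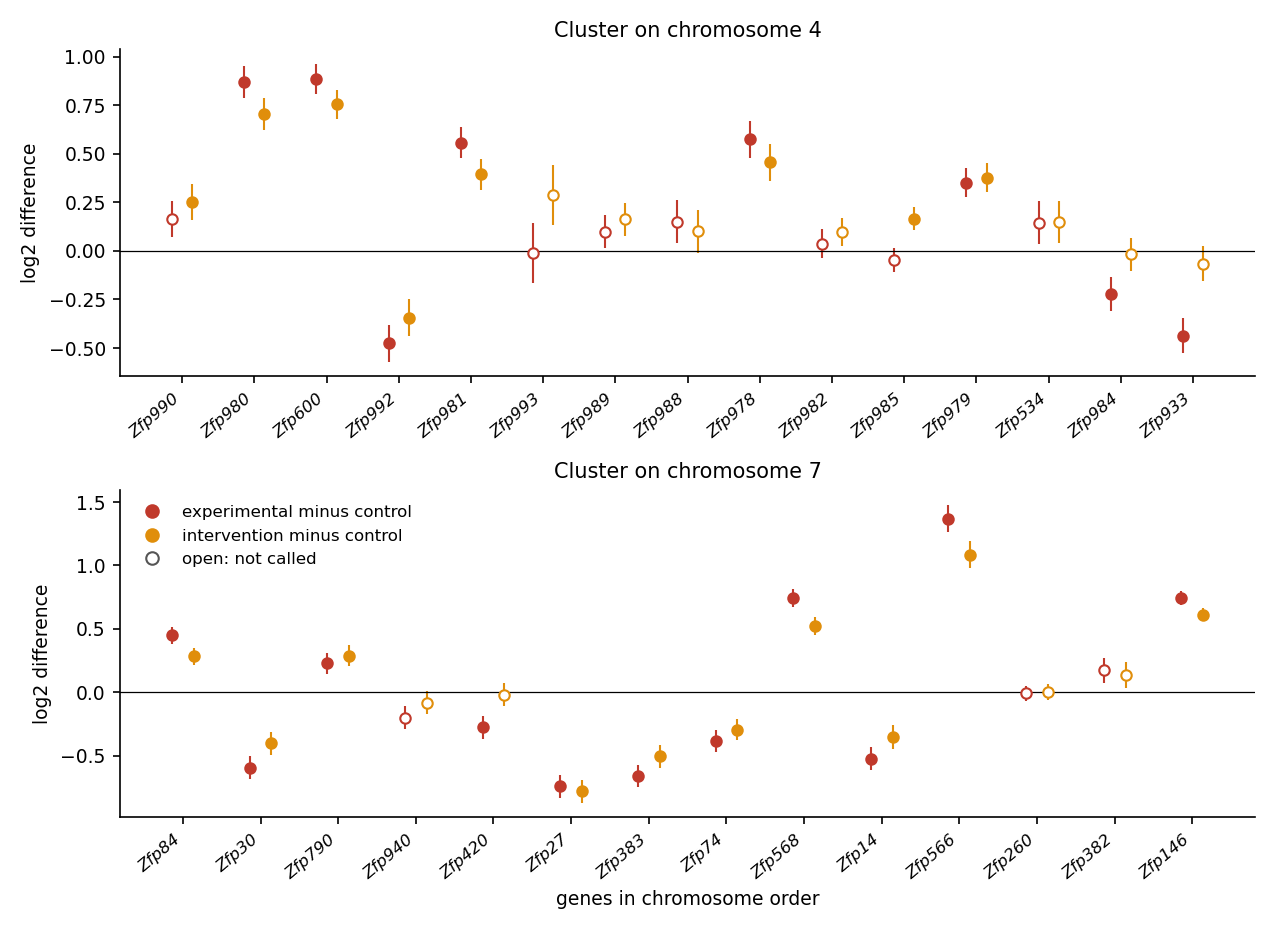
Members of the chromosome 4 cluster (15 genes) and the chromosome 7 cluster (14 genes) in gene order. Points are differences of log2(FPKM + 1), experimental minus control and intervention minus control. Bars are standard errors, filled points passed limma's adjusted p under 0.05 and open points did not. In experimental minus control, both clusters hold genes that rose beside genes that fell, up to 0.89 on chromosome 4 and 1.37 on chromosome 7.

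Between intervention and control libraries, too, more Zfp genes were lower than higher. Of the 281 entries, 99 (35.2%) were lower and 62 (22.1%) higher in intervention libraries, with a median difference of -0.08. Over all entries 41.1% were lower and 24.1% higher, and over the others in the control range 41.8% and 22.7%, with medians of -0.10 and -0.12. These differences between the Zfp genes and the background were not tested. Median-ratio scaling gave 78 lower and 88 higher Zfp genes, and quantile normalization 62 and 105.

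This comparison shares the control libraries with the previous one. Zfp469 stood at -1.44, Zfp414 at -1.21, Zfp395 at -1.17 and Zfp362 at -1.04 in log2 difference from control, and Zfp418 at 1.24 and Zfp566 at 1.08. Of the 33 genes at 10 FPKM or more, 19 were higher and 4 lower, with a median of 0.17, and of the 3916 other entries at that level 1342 (34.3%) were higher and 1391 (35.5%) lower. In the chromosome 4 cluster 7 genes were higher and 1 was lower, beside 24.1% and 41.1% of all entries. Among the 7 was Zfp990, which was under 1 FPKM in every control library, so its direction was partly set by the filter. The shared windows described above limit these values too. Zfp600 was higher by 0.75 (SE 0.08, limma adjusted p = 1.62e-05) and Zfp980 by 0.70. Zfp57 was lower by 0.57 (SE 0.06), and Zfp445 higher by 0.19 (SE 0.05, limma adjusted p = 0.00698).

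Between intervention and experimental libraries, differences were small, with a median of 0.12 for the Zfp genes and 0.10 both over all entries and over the others in the control range. Of the 281 Zfp entries, 49 (17.4%) were higher and 3 (1.07%) lower in intervention libraries, and 229 did not pass. Over all entries 15.9% were higher and 3.6% lower, and over the others in the control range 16.2% and 3.42%. The calls rested on single libraries. Against 52 calls with all 9 libraries, 0 were made without experimental library 1 or without intervention library 1, 1 without experimental library 3, 16 without intervention library 3 and 30 without control library 1. All 52 differences kept their sign in each of these fits and in those without any other library. Without experimental library 1, limma called 1 entry of the whole table, and 84 Zfp entries had an unadjusted p under 0.05. Median-ratio scaling gave 13 higher and 16 lower, and quantile normalization 7 and 11.

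The values of the higher genes in all 3 groups are given side by side, since this comparison shares the experimental libraries with the first. Zfp414 (log2 difference 0.43, limma adjusted p = 0.0151), Zfp362 (0.42), Zfp101 (0.37), Zfp395 (0.34) and Zfp57 (0.28), whose libraries are given above, were higher in intervention than in experimental and below control in every library. Zfp469 was 2.48-fold higher (log2 difference 0.92, limma adjusted p = 0.0381), or 1.29 in log2 difference without experimental library 3, and missed the threshold under 10 alternatives, with adjusted p from 0.0541 to 0.142. Zfp820, a KRAB gene, measured 2.46, 2.96 and 2.8 FPKM in experimental, 3.99, 4.8 and 4.29 in intervention, and 4.17, 3.84 and 4.06 in control libraries. Intervention overlapped control and stood above experimental (log2 difference 0.52, SE 0.08, limma adjusted p = 0.0151). Zfp995, also a KRAB gene, measured 1.36, 1.87 and 1.53 FPKM in experimental, 2.79, 2.79 and 2.32 in intervention, and 2.51, 2.76 and 2.53 in control libraries, the same arrangement (log2 difference 0.49, SE 0.09). Zfp825, a KRAB gene with 29.5% of its windows shared, measured 3.52, 5.44 and 3.82 FPKM in experimental and 8.02, 5.73 and 6.29 in intervention libraries and did not overlap between them (log2 difference 0.55, SE 0.14, limma adjusted p = 0.0300). Of the 162 KRAB genes, 32 were higher and 1 lower, with a median of 0.16, and of the 117 others 17 were higher and 2 lower, with a median of 0.09, beside 15.9% higher and 3.6% lower over all entries. Median-ratio scaling gave 8 higher and 6 lower KRAB genes, and 5 higher and 10 lower of the others, whose median became -0.0048.

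The 3 lower genes were Zfp703, Zfp568 and Zfp367, which stood at 0.33, 0.75 and 0.59 in log2 difference of experimental from control. Zfp703, a transcriptional repressor studied in breast cancer, measured 19.71, 17.92 and 20.42 FPKM in experimental, 11.92, 14.85 and 15.77 in intervention, and 15.2, 14.27 and 16.11 in control libraries. The experimental group was highest and the other 2 overlapped (intervention minus experimental -0.43, SE 0.09, limma adjusted p = 0.0198). Zfp568 and Zfp367 were lower by 0.23 and 0.19 (limma adjusted p = 0.0495 and 0.0477).

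The partners through which KRAB proteins silence DNA were themselves measured. Of 32 genes of KRAB corepression and heterochromatin, 16 were lower and 6 higher in experimental than in control libraries, beside 50.5% and 23.5% of all entries, with a median of -0.10 that median-ratio scaling moved to 0.13. Trim28, the scaffold that KRAB boxes bind, measured 66.06, 67.41 and 67.77 FPKM in experimental, 66.08, 64.41 and 68.15 in intervention, and 72.17, 74.09 and 71.27 in control libraries. Control was highest in each library (log2 difference -0.11, SE 0.04, limma adjusted p = 0.0334), and median-ratio scaling reversed the difference to 0.14. Setdb1 measured 13.73, 13.95 and 14.19 FPKM in experimental against 13.29, 13.11 and 13.79 in control libraries, with overlap (limma adjusted p = 0.291).

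The larger falls were in NuRD subunits and a histone methyltransferase. Mta1, a NuRD subunit, measured 18.01, 18.7 and 16.08 FPKM in experimental, 20.84, 20.17 and 21.8 in intervention, and 44.24, 44.01 and 45.54 in control libraries. It fell by 1.30 without overlap (SE 0.06, limma adjusted p = 7.92e-08). Mbd3, another NuRD subunit, fell by 0.87 and Ehmt2, which methylates histone H3 at silent genes, by 0.84. Among the 6 that rose, Trim33 rose by 0.50 and the NuRD subunit Mta2 stood at 50.32 to 53.1 FPKM in experimental against 42.09 to 43.79 in control libraries.

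Other zinc finger families were counted in the same way, beside 23.5% higher and 50.5% lower over all entries. Of 34 tested Zbtb genes, which pair fingers with a BTB dimerisation domain, 15 were higher and 12 lower in experimental than in control libraries, with a median of 0.12. Median-ratio scaling gave 19 higher and 9 lower (median 0.33), and quantile normalization 20 and 7 (median 0.43). Of 15 tested genes with a SCAN domain, 11 were lower and 1 higher, with a median of -0.26, and median-ratio scaling gave 5 lower and 3 higher (median -0.09). Zscan21 fell by 1.15, from 5.47 to 5.79 FPKM in control to 1.78 to 2.18 in experimental libraries. Of 14 KLF and SP genes 6 were higher and 6 lower, and of 20 CCCH genes, whose fingers bind RNA, 5 were higher and 10 lower, or 8 and 9 with median-ratio scaling. Zfp36, the CCCH protein tristetraprolin that the rule leaves out, measured 10.44, 8.43 and 9.77 FPKM in experimental, 6.21, 6.72 and 6.96 in intervention, and 3.57, 4.33 and 4.36 in control libraries. It destabilises mRNAs with AU-rich elements, and its 3 groups did not overlap, with a rise of 1.05 against control (SE 0.09, limma adjusted p = 2.6e-06).

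RefSeq promoter windows were found for 232 of the 280 symbols, 284 windows in all. The NRF2 element TGACNNNGC, searched on both strands, occurred in 15.5% of these windows, in 14.3% of the windows of all tested entries and in 12.4% of all 32851 windows. It occurred in 10 of 50 windows of genes higher in experimental libraries and in 24 of 145 windows of lower ones. The ATF4 element TGATGNAA occurred in 0.704% of Zfp windows, 2.02% of tested and 3.97% of all windows, and the heat shock element GAANNTTC in 8.1%, 5.5% and 7.86%. A match says only that these letters stand in the window.

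Members near the filter behaved as low values do. Of the 281 entries, 251 were at 1 FPKM or more in all 9 libraries. The 3 entries Zfp14, Zfp759 and Zfp775 passed through the control group alone, and Zfp418, Zfp990 and the second Zfp91 entry were under 1 FPKM in all control libraries, so their direction against control was partly set by the filter. By the same measure, 12 entries, Zfp658 among them, were under 1 FPKM in all 3 experimental libraries, against 3 in all 3 control libraries. Just inside the threshold, Zfp14 measured 1.06, 1.0 and 1.37 FPKM in control and 0.48, 0.51 and 0.47 in experimental libraries. Just outside it, Zfp419 measured 1.5, 0.65 and 1.22 FPKM in control libraries. Of the 84 entries below the filter, 73 reached 1 FPKM in no library. Of the 281, 41 shared at least 20% of their windows with other genes. Among the 167 that shared under 1%, 92 were lower and 36 higher in experimental libraries, beside 50.5% and 23.5% of all entries. Their median difference was -0.29. Where the counting did not use strand, the 62 members that overlap a gene on the other strand cannot be told from it; whether it did is not given in the sources used here. Among the 199 without an overlap, 97 were lower and 39 higher (median -0.20), beside the same 50.5% and 23.5% of all entries.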

How the data were processed

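RNA was sequenced from 9 HT22 libraries, 3 in each of the experimental, intervention and control groups, assigned by the labels and by matching column names. The authors deposited 1 table of FPKM values for 29756 entries, aligned to mm10 per the submitters' processing notes. For the aligner, the counter, the gene models and whether counting was stranded, no statement is given in the sources used here. Low values did not give whole reads per library (1438 of 8255 values of short genes were below 1 read at the largest depth considered), so no count test was made and precision rests on the replicates alone.

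Entries at 1 FPKM or more in 3 libraries were tested on log2(FPKM + 1) with limma 3.58.1 in R 4.3.3, with a mean-variance trend, all 9 libraries and no covariate, and Benjamini-Hochberg adjustment over the 11974 entries. Differences are on the log2(FPKM + 1) scale, which understates changes of low genes, and fold changes are ratios of mean FPKM. The fit was tested on simulated data. The members and gene lists were chosen with earlier results of these data known. Named genes were, in each comparison, up to 8 higher and up to 12 lower members with the largest differences whose libraries did not overlap and whose higher group averaged at least 2 FPKM, the 3 most abundant members, 22 members with studied roles whatever they showed, and up to 2 called genes of each other list with the smallest adjusted p; only part of these is described. Members of clusters or classes, and further genes a result turns on, were chosen after their values were seen.

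GC content, fingers, KRAB boxes, overlaps and shared 50-base windows came from GENCODE M21 transcripts on the same build, using patterns. Promoter windows came from RefSeq on GRCm38.p6. Alternatives were a pseudocount of 0.1, no filter, a mean of at least 2 FPKM, median-ratio and quantile scaling, TPM, only the 2 groups compared, no trend, a replicate block, each library left out in turn and, chosen after seeing the data, removal of a GC and length trend.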

Additional observations from a re-analysis of the deposited data

How the results depend on the processing

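Counts and medians of the 281 Zfp entries moved with the scaling and, for intervention against experimental, also with the filter and with single libraries; the cause was not tested. For experimental against control, 53 higher entries became 94 with median-ratio scaling and 109 with quantile normalization, and 143 lower entries became 74 with the latter. The median of -0.21 became -0.30 with a pseudocount of 0.1, -0.044 with median-ratio scaling, 0.044 with quantile normalization and -0.33 in TPM. Leaving out 1 library gave 47 to 52 higher, 132 to 143 lower and a median of -0.23 to -0.21.

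For intervention against control, quantile normalization gave 105 higher and 62 lower in place of 62 and 99, and the median of -0.08 became 0.026 with median-ratio scaling, 0.085 with quantile normalization and -0.16 in TPM. Leaving out 1 library gave 51 to 61 higher, 89 to 101 lower and a median of -0.08 to -0.05.

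For intervention against experimental, 49 higher and 3 lower entries became 0 and 0 without a filter, where all 29756 entries were tested, 13 and 16 with median-ratio scaling, 7 and 11 with quantile normalization, and 30 and 1 with only the 2 groups. No mean-variance trend gave 1 lower and removing the GC and length trend 5 lower. The median of 0.12 became 0.17 with a pseudocount of 0.1, 0.045 with median-ratio scaling and 0.031 with quantile normalization. Leaving out 1 library gave 0 to 51 higher, 0 to 9 lower and a median of 0.11 to 0.14.

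Among named genes, the difference of experimental from control changed sign for Zfp281 (-0.06 to 0.17 and 0.14), Zfp445 (-0.03 to 0.21 and 0.13) under median-ratio and quantile scaling, and for Zfp638 (-0.24 to 0.0033) under quantile scaling.

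Libraries of the same number did not deviate together (correlations from -0.18 to 0.11). The replicate block gave 50 higher and 141 lower for experimental against control, 57 and 99 for intervention against control, and 22 and 2 for intervention against experimental.

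Depth is unknown, so the counting error of low genes could not be given.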
